A study of Mus musculus with 7 samples.

Results

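The transcription factors described here set the identity of the intestinal epithelium: the caudal-type homeodomain factors Cdx1 and Cdx2, the nuclear receptors Hnf4a and Hnf4g, the zinc-finger factors Gata4, Gata5 and Gata6, and the Krüppel-like factor Klf5. These 8 genes were taken by name from the gene probes of the arrays, and all 8 were among the 17537 genes measured. The question was whether their mRNA differs between Lgr5 cells and 3 fractions of Dll1 cells.

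RNA from sorted epithelial cells of mouse intestine was hybridised on 7 dual-colour arrays. The CD24low, CD24medium and CD24high groups (2 arrays each) were GFP-high cells of Dll1-EGFP-ires-CreERT2 mice, sorted by their surface level of CD24. The Lgr5 group (1 array) held GFP-high cells of Lgr5-EGFP-ires-CreERT2 mice, which the labels describe as stem cells, so every comparison with it rests on a single sample on that side. Both alleles also encode CreERT2, in all groups, and GFP marks cells in which the Dll1 or the Lgr5 promoter is or was recently active. The age and strain of the mice, and how many were pooled, were not given in the sources used here. Per the design text the replicates were biological. Each array carried the sorted cells in the Cy3 channel and RNA of whole small intestine in the Cy5 channel. For Cdx1, the spot signal before normalisation was 244 to 1241 in Cy3 against 1258 to 1735 in Cy5. A level below is the log2 ratio of sorted cells to whole intestine after normalisation within each array. There 0 means the usual ratio for spots of that intensity, and above or below whole intestine means above or below 0. Between genes these ratios cannot be ranked as amounts.

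As background, CDX, HNF4 and GATA factors bind together at enhancers of genes for digestion, absorption and brush border structure. In mice, loss of Cdx2 lets gut epithelium take on features of the stomach, combined loss of both HNF4 paralogs impairs enterocyte differentiation, and GATA4 keeps jejunal genes distinct from ileal ones. KLF5 is a factor of crypt epithelium that is needed for its renewal. Dll1 marks secretory progenitors and their progeny, and Lgr5 marks crypt base stem cells.

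In CD24low cells, 4 of the 8 factors were higher than in CD24high cells and none was lower: Cdx1, Cdx2, Hnf4a and Klf5, by 1.58-fold to 2.25-fold. Adjusted p-values here and below come from limma over all genes measured, with Benjamini-Hochberg adjustment and a threshold of 0.05. In that comparison 6.84% of all genes were called higher, 11.2% lower and 18.0% in either direction. The median difference over the 8 factors was 0.66 on the log2 scale, against 0.02 over all genes. Against Lgr5 cells, Cdx1 alone was called in CD24low cells, where it was higher (1 of 8 factors; 11.9% of all genes were called higher, 9.78% lower and 21.7% in all). Cdx1 was also the 1 factor called in CD24medium against Lgr5 cells, again higher (10.3% of all genes higher, 8.50% lower, 18.8% in all). In CD24high against Lgr5 cells the 1 factor called was Hnf4a, which was lower (14.6% of all genes lower, 21.2% higher, 35.8% in all). A count of 1 in 8 is near or below the shares of all genes in those comparisons. None of the 8 was called between CD24medium and CD24high cells, where 20.8% of all genes were called (7.52% higher and 13.3% lower). The smallest adjusted p of the 8 was 0.051. There 5 of the 8 had an unadjusted p under 0.05, as did 6245 of all 17537 genes. None was called between CD24low and CD24medium cells either, where 0.114% of all genes were called. In that comparison 2 factors, Cdx1 and Hnf4a, had an unadjusted p under 0.05, as did 1866 of all 17537 genes. The comparisons share arrays, those with Lgr5 cells the same single array, so they are not independent of each other.

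**Figure D1:**
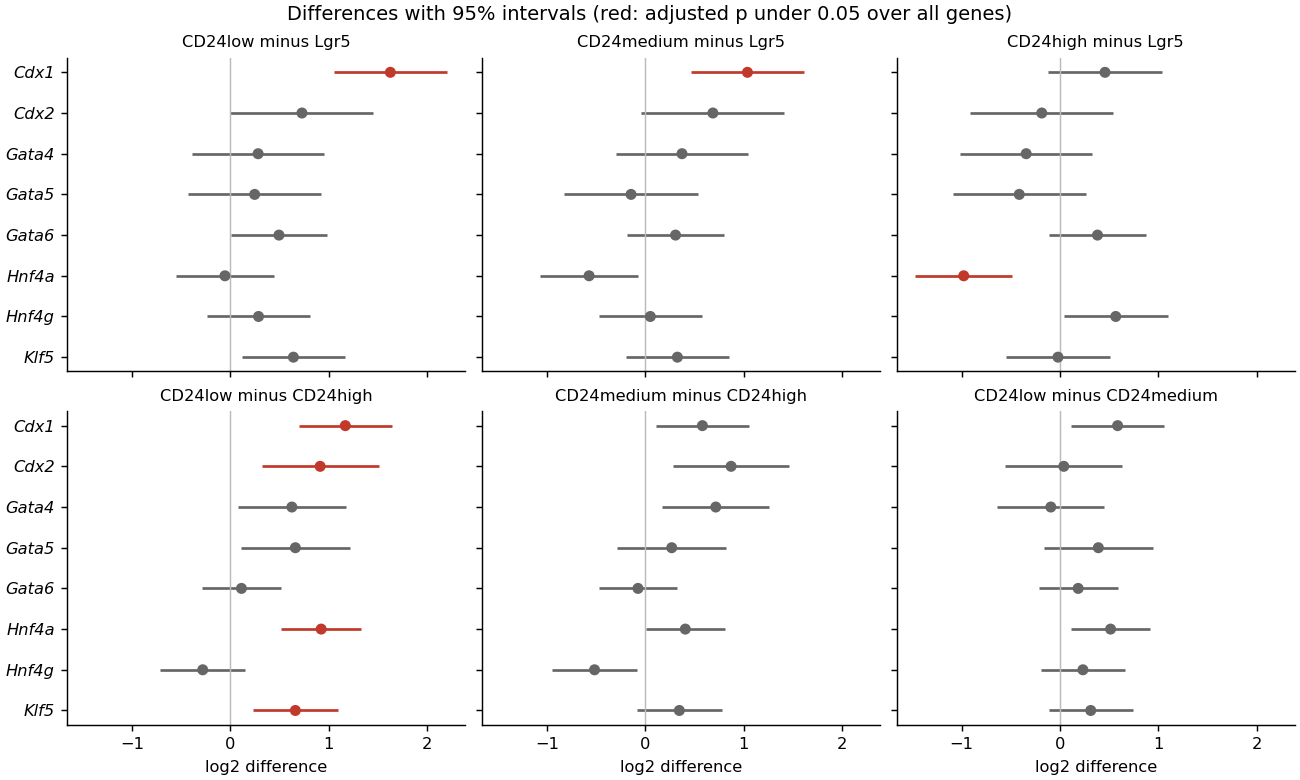
Log2 difference of each of the 8 factors in the 6 comparisons (x axis), with 95% intervals from the limma fit as horizontal bars and red for an adjusted p under 0.05. Cdx1 is red in 3 panels, Hnf4a in 2, and Cdx2 and Klf5 in CD24low minus CD24high alone.

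The sorted groups differed in the levels of cell type markers and in signal strength. Stem cell markers had median levels of −1.23 to 0.64 on the Dll1 arrays, against 1.74 on the Lgr5 array. They were mixed in CD24high cells, where Smoc2 was at 2.30 and 2.21, against 1.70 on the Lgr5 array. Lgr5, at 1.36 and 1.31 against 2.51, Olfm4, Ascl2 and Tnfrsf19 were lower in CD24high cells than on the Lgr5 array. Paneth cell markers, 6 of 6 measured, had median levels of −3.71 and −3.92 in CD24low, −1.16 and −1.14 in CD24medium, 4.80 and 5.38 in CD24high and −4.01 in Lgr5 cells. Enteroendocrine markers had median levels of 3.32 and 4.95 in CD24medium cells and 1.14 and 3.32 in CD24low cells, so CD24low replicate 2 was level with CD24medium replicate 1. Goblet markers had medians of 1.91 to 3.73 on the Dll1 arrays against −3.33 in Lgr5 cells. Within CD24high cells that list was mixed. Muc2, Tff3 and Spdef were above whole intestine there, while Fcgbp was at −0.49 and −0.93 and Zg16 at −2.73 and −3.78. All 6 pan-epithelial markers were well above background on every array. In CD24high cells 42.5 and 44.4% of gene spots were well above background, against 52.8 to 60.5% on the other arrays. In such sorted bulk samples, fewer cells of a type and less RNA per cell cannot be told apart, and the part of cell make-up or signal strength in the results below was not tested.

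Cdx1, the caudal-type factor of intestinal crypts and itself a target of Wnt signalling, showed the widest range of the 8. Its level was 2.16 and 2.30 in CD24low cells, 1.64 and 1.65 in CD24medium cells, 1.30 and 0.83 in CD24high cells and 0.60 on the Lgr5 array. Every array of one group lay above every array of the next in that order, so no groups overlapped, and all 7 samples were above whole intestine. The group means were 2.23 ± 0.10 in CD24low, 1.65 ± 0.0040 in CD24medium and 1.06 ± 0.33 in CD24high cells (SD, n = 2 each). CD24low cells had 3.09-fold more Cdx1 signal than Lgr5 cells (log2 difference 1.63, SE 0.24, adjusted p = 0.0071). CD24medium cells had 2.06-fold more than Lgr5 cells (1.04, SE 0.24, adjusted p = 0.03), a call that was lost when either CD24medium array was left out (adjusted p = 0.095 without replicate 1 and 0.11 without replicate 2) and with the deposited ratios in place of the renormalised ones (0.84, adjusted p = 0.057). CD24high cells did not pass against Lgr5 cells (0.46, 95% interval −0.12 to 1.03, adjusted p = 0.19). Among the Dll1 fractions, CD24low cells had 2.25-fold more than CD24high cells (1.17, SE 0.20, adjusted p = 0.01). The steps between neighbouring fractions did not pass, at 0.59 for CD24low minus CD24medium (adjusted p = 0.39) and 0.58 for CD24medium minus CD24high (adjusted p = 0.082).

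The 7 arrays came from 2 slides, with Lgr5 on slide 1 and both CD24low arrays on slide 2. Within slide 2, Cdx1 was 1.40 higher in CD24low than in the CD24high sample, and within slide 1 it was 1.04 higher in the CD24medium than in the Lgr5 sample. For CD24low against Lgr5 cells no slide holds both, and with slide as a term in the fit the difference was 1.86 (adjusted p = 0.024). Cdx1 was called in CD24low against CD24high cells under each alternative run, including each array left out in turn. With 1 array left out that difference was 0.94 to 1.40, and the call at its weakest was only just past the threshold. In CD24low against Lgr5 cells it was called under each alternative that could be run, but the single Lgr5 array could not be left out.

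Cdx2, the caudal-type factor that installs and keeps intestinal fate, was below whole intestine on all 7 arrays. Its level was −0.70 and −0.80 in CD24low cells, −0.76 and −0.82 in CD24medium cells, −1.31 and −2.03 in CD24high cells and −1.48 on the Lgr5 array. CD24low and CD24medium arrays lay together, above both CD24high arrays and the Lgr5 array, and the CD24high arrays lay on both sides of the Lgr5 value. CD24low cells had 1.88-fold more Cdx2 signal than CD24high cells (0.91, SE 0.25), just past the threshold (adjusted p = 0.049). The 2 CD24high replicates differed by nearly as much as the groups did, and without CD24high replicate 2 the difference was 0.55 (adjusted p = 0.14). Leaving out any of the CD24low or CD24medium arrays ended the call as well, with adjusted p of 0.084 to 0.14, as did no filter on dim probes (0.066), the mean of all probes (0.051) and the compared groups alone (0.084). Within slide 2 the difference was 1.27. CD24medium cells had 1.83-fold more than CD24high cells, which missed the threshold (0.87, SE 0.25, adjusted p = 0.051). Against Lgr5 cells, the differences of 0.73 in CD24low, 0.69 in CD24medium and −0.18 in CD24high cells did not pass (adjusted p = 0.13, 0.17 and 0.69).

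The arrays read each of these genes through 60-base probes, and the results for Cdx2 and Hnf4a turn on the ones whose first 30 bases are shown here as listed in the array files, with their mapped positions on mm9. No base is marked, and the position of the probes relative to exons was not analysed here.
Cdx2, A_52_P177490, chr5:148112547-148112606, minus strand: gccttttaaaaagccttcttgatccatggg
Hnf4a, A_52_P683991, chr2:163398074-163398133, plus strand: tattacagtacagggaacatggaataaagg
Hnf4a, A_51_P198473, chr2:163396065-163396124, plus strand: ctggactcctctcaagttgaagtcatcgtc
Hnf4a, A_52_P69656, chr2:163378302-163378361, plus strand: ccgacaatgtgtggtagacaaagataagag
The first Hnf4a probe is the brightest and the one used for the gene, and the last lies farthest 5′ along it. Over the 8 factors the arrays carried 15 probes, 13 of which passed the filter on dim probes.

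Hnf4a, the nuclear receptor that drives much of the enterocyte programme, was the 1 factor with its highest group mean in Lgr5 cells. Its level was −0.57 and −0.31 in CD24low cells, −0.90 and −1.01 in CD24medium cells, −1.28 and −1.45 in CD24high cells and −0.38 on the Lgr5 array. The Lgr5 value lay between the 2 CD24low arrays, and the CD24medium and CD24high arrays followed below without overlap. CD24high cells had 1.97-fold less Hnf4a signal than Lgr5 cells (log2 difference −0.98, SE 0.21, adjusted p = 0.012). Within slide 1 that difference was −0.90. It was called under every alternative that could be run, with adjusted p of 0.0065 to 0.031 over the processing settings. With 1 Dll1 array left out the difference was −1.06 to −0.90, and the call at its weakest was only just past the threshold. The single Lgr5 array could not be left out. CD24low cells had 1.90-fold more than CD24high cells (0.92, SE 0.17, adjusted p = 0.014), and 1.01 more on the log2 scale within slide 2. That call was lost when all probes of the gene were averaged (0.54, adjusted p = 0.062), without CD24high replicate 2 (0.84, adjusted p = 0.066) and without CD24low replicate 2 (0.80, adjusted p = 0.065). CD24low and Lgr5 cells did not differ past the threshold (−0.06, 95% interval −0.55 to 0.44, adjusted p = 0.87). The intermediate steps did not pass either, at −0.57 for CD24medium minus Lgr5 (adjusted p = 0.1), 0.41 for CD24medium minus CD24high (0.14) and 0.51 for CD24low minus CD24medium (0.38).

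The 3 Hnf4a probes did not give the same picture. On A_52_P69656, the 5′-most, the level was 0.04 and 0.11 in CD24low, 0.09 and −0.22 in CD24medium and −0.26 and −0.16 in CD24high cells, where the probe was not well above background, against 0.95 on the Lgr5 array. There the Lgr5 array stood apart from all 6 Dll1 arrays, and CD24low minus Lgr5 was −0.87, against −0.06 on the brightest probe. On A_51_P198473 the CD24low arrays were at 0.20 and 0.64, the CD24medium and CD24high arrays lay together between −0.04 and 0.03, and the Lgr5 array, at 0.41, again lay between the CD24low arrays. CD24low minus CD24high was 0.43 on that probe, below the 0.92 of the brightest, and CD24high minus Lgr5 was −0.42, against −0.98. No difference from CD24high cells is given for the 5′-most probe, which was too dim there. Both further probes were dimmer, with mean log2 intensities of 8.33 and 8.03 against 11.6.

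**Figure D2:**
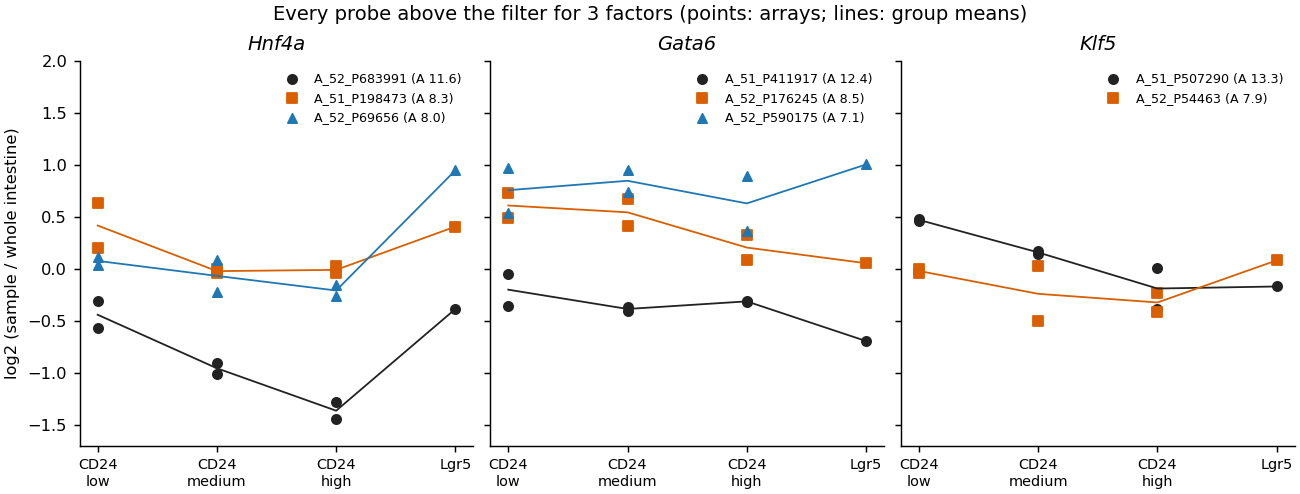
Level on every array (points, log2 of sample over whole intestine) and group means (lines) for each Hnf4a, Gata6 and Klf5 probe past the filter, with its mean log2 intensity (A) in the legend. The 5′-most Hnf4a probe lies between −0.26 and 0.11 on the Dll1 arrays and at 0.95 in Lgr5 cells, while the brightest separates the Dll1 fractions.

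Hnf4a is transcribed from a pair of promoters, distal and proximal. RefSeq windows of the 250 bases before a start were used for 3 of the 8 factors (4 windows, GRCm38.p6), and those of Cdx2 and Hnf4a are shown because both genes were higher in CD24low than in CD24high cells. Capitals mark matches, on either strand, to short motifs searched by their letters. For CDX factors the letters searched were TTTAT. Those taken for GATA factors were AGATAA. The nuclear receptor HNF4 was searched as CAAAGT. For the homeodomain factor HNF1 the search used GTTAAT. A GC box, bound by Sp and Krüppel-like factors, was searched as GGGCGG. No matches overlapped.
Cdx2, chr5:147307250-147307499, minus strand: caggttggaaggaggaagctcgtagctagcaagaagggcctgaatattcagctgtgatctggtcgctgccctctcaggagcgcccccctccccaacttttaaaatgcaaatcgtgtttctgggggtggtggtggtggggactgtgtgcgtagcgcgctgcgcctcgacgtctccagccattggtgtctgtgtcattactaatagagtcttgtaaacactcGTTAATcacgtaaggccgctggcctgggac
Hnf4a, upstream window, chr2:163506607-163506856, plus strand: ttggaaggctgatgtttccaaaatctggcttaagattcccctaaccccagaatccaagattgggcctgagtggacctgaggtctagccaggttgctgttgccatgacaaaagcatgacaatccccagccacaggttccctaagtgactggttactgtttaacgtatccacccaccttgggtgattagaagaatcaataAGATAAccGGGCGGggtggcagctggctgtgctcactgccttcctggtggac
Hnf4a, downstream window, chr2:163546905-163547154, plus strand: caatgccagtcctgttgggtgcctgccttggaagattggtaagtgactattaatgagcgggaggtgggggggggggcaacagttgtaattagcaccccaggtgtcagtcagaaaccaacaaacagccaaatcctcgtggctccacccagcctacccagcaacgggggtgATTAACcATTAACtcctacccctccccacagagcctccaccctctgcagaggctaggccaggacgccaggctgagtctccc
The Cdx2 window held 1 HNF1 match, at bases −30 to −25 from the start. The upstream Hnf4a window held a GATA match at −52 to −47 and a GC box at −44 to −39. The downstream Hnf4a window held 2 HNF1 matches, both on the other strand, at −81 to −76 and −74 to −69. Among 32851 windows of the same length, 37.3% held the CDX letters, 9.99% the GATA, 12.6% the HNF4, 6.43% the HNF1 and 32.7% the GC box letters. These matches describe the sequence and no binding was measured.

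Hnf4g, the paralog of Hnf4a that shares much of its binding in mouse gut, was highest in CD24high cells, without passing any test. Its level was −0.97 and −1.19 in CD24low cells, −1.21 and −1.42 in CD24medium cells, −0.92 and −0.68 in CD24high cells and −1.37 on the Lgr5 array. The 2 CD24high arrays were the highest and the Lgr5 array lay between the CD24medium arrays. The widest differences were 0.57 for CD24high minus Lgr5 (95% interval 0.04 to 1.09, adjusted p = 0.09) and −0.51 for CD24medium minus CD24high (−0.95 to −0.08, adjusted p = 0.09). The sign against Lgr5 cells was not stable, since CD24high minus Lgr5 was −0.13 with the deposited ratios and −0.26 with the sample channel alone. The further Hnf4g probe was not well above background on any array.

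**Figure D3:**
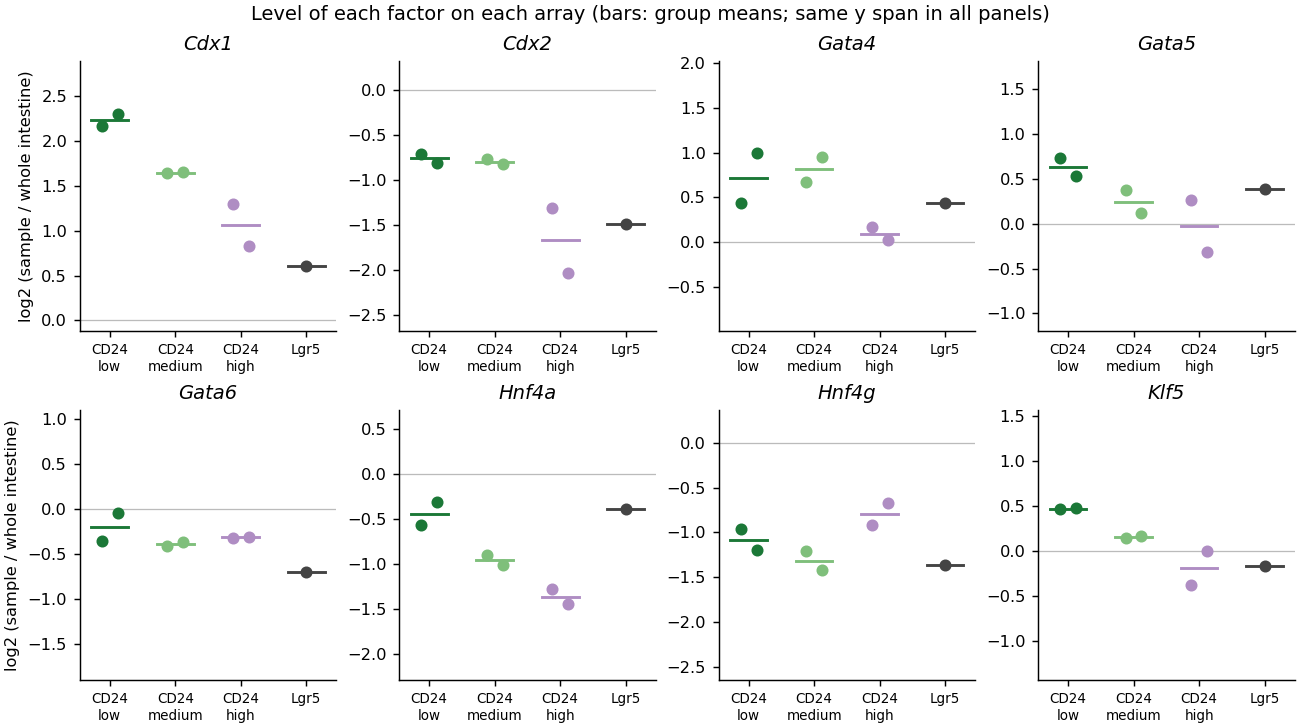
Level of each factor on each array (points, log2 of sample over whole intestine; bars are group means), with the same span of the y axis in each panel. Cdx1 steps down through the groups with no overlap, whereas Gata6 and Hnf4g stay within a span of 0.49 and 0.57 between their highest and lowest group means.

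Among the GATA factors no comparison passed the threshold. Gata4, which marks jejunal against ileal identity in mice, was at 0.44 and 1.00 in CD24low cells, 0.67 and 0.96 in CD24medium cells, 0.17 and 0.03 in CD24high cells and 0.44 on the Lgr5 array. Both CD24high arrays were the lowest, and there the probe was not well above background. CD24medium minus CD24high did not pass (adjusted p of the log ratios 0.071). On the sample channel after scaling the ratio of CD24medium to CD24high cells was 1.45-fold, where no dye swap guards against dye bias. For CD24low against CD24high cells the same calculation gave 1.63-fold, above the 1.54-fold of the log ratios (adjusted p = 0.11). No bound is drawn from either ratio. The array file places 22 of this probe's bases, at chr14:63817752-63817773 on mm9, and the further Gata4 probe was not well above background on any array.

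Gata5, a family member found in differentiated villus cells of the mouse, was at 0.73 and 0.53 in CD24low cells, 0.37 and 0.11 in CD24medium cells, 0.26 and −0.31 in CD24high cells and 0.39 on the Lgr5 array. The CD24low arrays were the highest, and the other 2 fractions overlapped. CD24low minus CD24high was 0.66 (95% interval 0.11 to 1.21, adjusted p = 0.1). It passed with slide as a term (0.87, adjusted p = 0.043) and was 0.95 within slide 2. No difference from Lgr5 cells exceeded 0.41 in size, with adjusted p of 0.31 to 0.76.

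Gata6, expressed along the whole length of the gut epithelium, varied least. Its level was −0.35 and −0.04 in CD24low cells, −0.40 and −0.36 in CD24medium cells, −0.32 and −0.30 in CD24high cells and −0.69 on the Lgr5 array. All 6 Dll1 arrays lay within −0.40 to −0.04, above the Lgr5 array. CD24low minus Lgr5 was 0.49 (95% interval 0.0038 to 0.98, adjusted p = 0.13). Between CD24low and CD24high cells the interval was −0.29 to 0.51, so a difference beyond 0.51 in either direction lies outside it. The further Gata6 probes differed in this. On A_52_P176245 the Lgr5 array was again the lowest, at 0.055, with the Dll1 arrays at 0.085 to 0.73. On A_52_P590175 the Dll1 arrays were at 0.37 to 0.98 and the Lgr5 array was the highest of the 7, at 1.01.

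Klf5 was at 0.46 and 0.48 in CD24low cells, 0.15 and 0.17 in CD24medium cells, −0.38 and 0.01 in CD24high cells and −0.17 on the Lgr5 array. The CD24low arrays lay above the CD24medium arrays, these above the CD24high arrays, and the Lgr5 array lay between both CD24high arrays. CD24low cells had 1.58-fold more Klf5 signal than CD24high cells (0.66, SE 0.18, adjusted p = 0.049). This call was the least stable of the 4: it was lost with the mean of both probes (0.48, adjusted p = 0.11), with slide as a term (0.56, adjusted p = 0.12), without background subtraction (0.053), with the deposited ratios (0.066), without the filter on dim probes (0.052), with the compared groups alone (0.095) and without CD24high replicate 1, either CD24medium array or either CD24low array (adjusted p of 0.095 to 0.16). Within slide 2 the difference was 0.47. The dimmer Klf5 probe, not well above background in CD24high cells, gives no measured difference for that comparison. Klf5 did not pass against Lgr5 cells in CD24low (0.64, adjusted p = 0.083), CD24medium (0.33, adjusted p = 0.34) or CD24high cells (−0.02, adjusted p = 0.96).

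**Figure D4:**
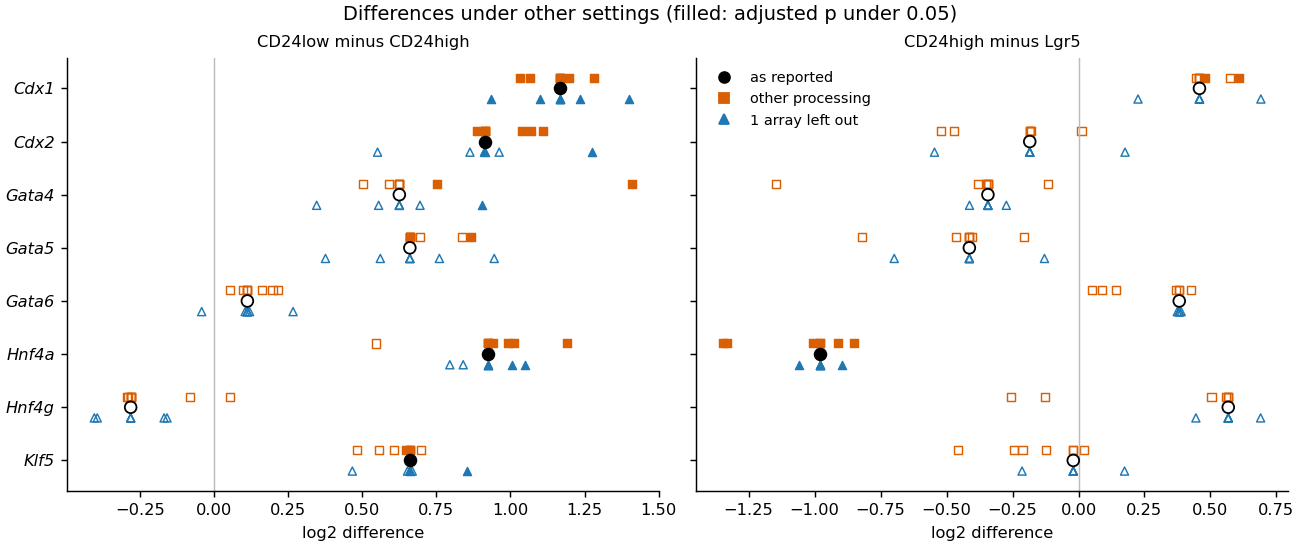
Difference of each factor as reported (circles), under other processing settings (squares) and with 1 array left out (triangles) for CD24low minus CD24high and CD24high minus Lgr5; filled symbols have an adjusted p under 0.05. Cdx1 on the left and Hnf4a on the right are filled throughout, whereas Cdx2 and Klf5 on the left are filled in some settings only.

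Several relatives of these factors had larger differences. Of 15 further CDX, GATA, FOG and KLF family genes, 11 were measured, and 10 were higher in CD24high than in Lgr5 cells, with none lower, at a median difference of 1.66 against 0.10 over all genes, of which 21.2% were called higher. With the deposited ratios 6 of the 11 were called higher and with 1 array left out 7 or 8. In CD24medium and in CD24low cells 6 of 11 were higher than in Lgr5 cells and none was lower (10.3 and 11.9% of all genes higher), falling to 3 and 2 without CD24medium replicate 1 or 2, and for CD24low to 3 with slide as a term. Klf4, a Krüppel-like factor of differentiated gut epithelium and goblet cells, was at 1.35 and 1.23 in CD24low cells, 1.04 and 0.65 in CD24medium cells and 1.87 and 1.51 in CD24high cells, against −4.20 on the Lgr5 array. CD24high minus Lgr5 was 5.89 (SE 0.25, adjusted p = 4.7e-05). Klf6, another Krüppel-like factor, was 4.49 higher in CD24high than in Lgr5 cells (SE 0.24, adjusted p = 0.00011). Klf15 was not well above background in CD24low cells, was at 2.31 and 1.57 in CD24high cells and was not well above background in Lgr5 cells. On the sample channel after scaling, Klf15 was 11.8-fold higher in CD24high than in Lgr5 cells. By the same calculation it was 9.07-fold lower in CD24low than in CD24high cells. The log ratios gave 3.87 for CD24high minus Lgr5 and −3.63 for CD24low minus CD24high (adjusted p = 0.0011 for each). The further Klf15 probe gave 3.30 and −3.39. Over the processing settings CD24high minus Lgr5 was 3.08 to 7.62. No bound is drawn from these values. Between CD24low and CD24high cells 4 of the 11 relatives were lower (11.2% of all genes), and the median difference of the 11 was −0.64, against 0.66 for the 8 factors. These were Zfpm1, Klf2, Klf6 and Klf15, and the 1 called higher was Klf3, at an adjusted p of 0.049. None of the 11 was called higher without background subtraction, with the series matrix, slide as a term, the sample channel alone, the compared groups alone, the averaged probes or the replicate block, or without any 1 of the Dll1 arrays. Zfpm1, Klf2 and Klf3 are named after their values were seen. In the comparisons that hold CD24high cells, here and in the lists that follow, the Paneth marker levels given above differed as well. Their part was not tested.

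Of 18 partner factors of intestinal identity 17 were measured. In CD24high against Lgr5 cells 5 were higher and 4 lower, against 21.2 and 14.6% of all genes, with a median difference of 0.09 against 0.10 over all genes. The balance turned under other scalings, to 3 higher and 7 lower with the sample channel alone and 3 and 6 with the series matrix. In CD24low against CD24high cells 3 were higher and 1 lower, against 6.84 and 11.2% of all genes, with a median of 0.18 against 0.02. The 5 higher fell to 2 without CD24high replicate 1 and to 3 without either CD24low array or with slide as a term, and the 3 higher fell to 1 without CD24low replicate 2 or with slide as a term. Isx, a homeobox factor of intestinal epithelium that restrains vitamin A formation, was at 0.37 and 0.01 in CD24low cells, −0.16 and −0.74 in CD24medium cells, −2.76 and −3.47 in CD24high cells and −0.56 on the Lgr5 array. Like Cdx2 it was lowest in CD24high cells, and CD24low minus CD24high was 3.30 (SE 0.31, adjusted p = 0.0011). Vdr, the vitamin D receptor, was at −1.80 and −2.15 in CD24high cells against 0.77 on the Lgr5 array (−2.75, SE 0.40, adjusted p = 0.0031). Tcf7l2, a mediator of Wnt signalling, was higher in CD24high than in Lgr5 cells (1.72, SE 0.28, adjusted p = 0.0049), though its further probe gave 0.52 and the mean of its probes 0.86 (adjusted p = 0.028).

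Genes commonly given as targets of CDX2, HNF4 or GATA4 were measured for 17 of 18 members, and most of the levels lay below whole intestine. In CD24low against Lgr5 cells 9 were higher and none lower, at a median difference of 1.09 against 0.10 over all genes, of which 11.9% were higher, but 1 was called with slide as a term and 5 with the sample channel alone. In CD24high against Lgr5 cells 8 were higher and 1 lower, against 21.2 and 14.6% of all genes. That became 5 higher and 2 lower with the series matrix, 5 higher with slide as a term and 3 higher and 3 lower with the sample channel alone. In CD24medium against CD24high cells 2 were higher and 5 lower, against 7.52 and 13.3% of all genes. The median there was −0.67, against 0.01 over all genes and 0.38 for the 8 factors, and the lower count was not stable with 1 array left out. Between CD24low and CD24high cells 2 were higher and 1 lower, against 6.84 and 11.2% of all genes, with a median of 0.02, close to that of all genes. Without CD24low replicate 2 the higher count was 4. Lgals4, which encodes galectin-4, was at 1.02 and 0.75 in CD24low cells, 0.52 and 0.06 in CD24medium cells, −2.53 and −3.12 in CD24high cells and −1.35 on the Lgr5 array. CD24low minus CD24high was 3.71 (SE 0.26, adjusted p = 0.00035), and 3.56 on its further probe. Fabp2, the intestinal fatty acid binding protein, was 2.26 higher in CD24low than in CD24high cells (SE 0.34, adjusted p = 0.0065). Sis, the brush border enzyme sucrase-isomaltase, was far below whole intestine in all groups, with levels of −4.81 and −3.80 in CD24medium cells against −6.73 on the Lgr5 array (difference 2.42, SE 0.42, adjusted p = 0.012). With the sample channel alone that call was lost (1.77, adjusted p = 0.062).

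**Figure D5:**
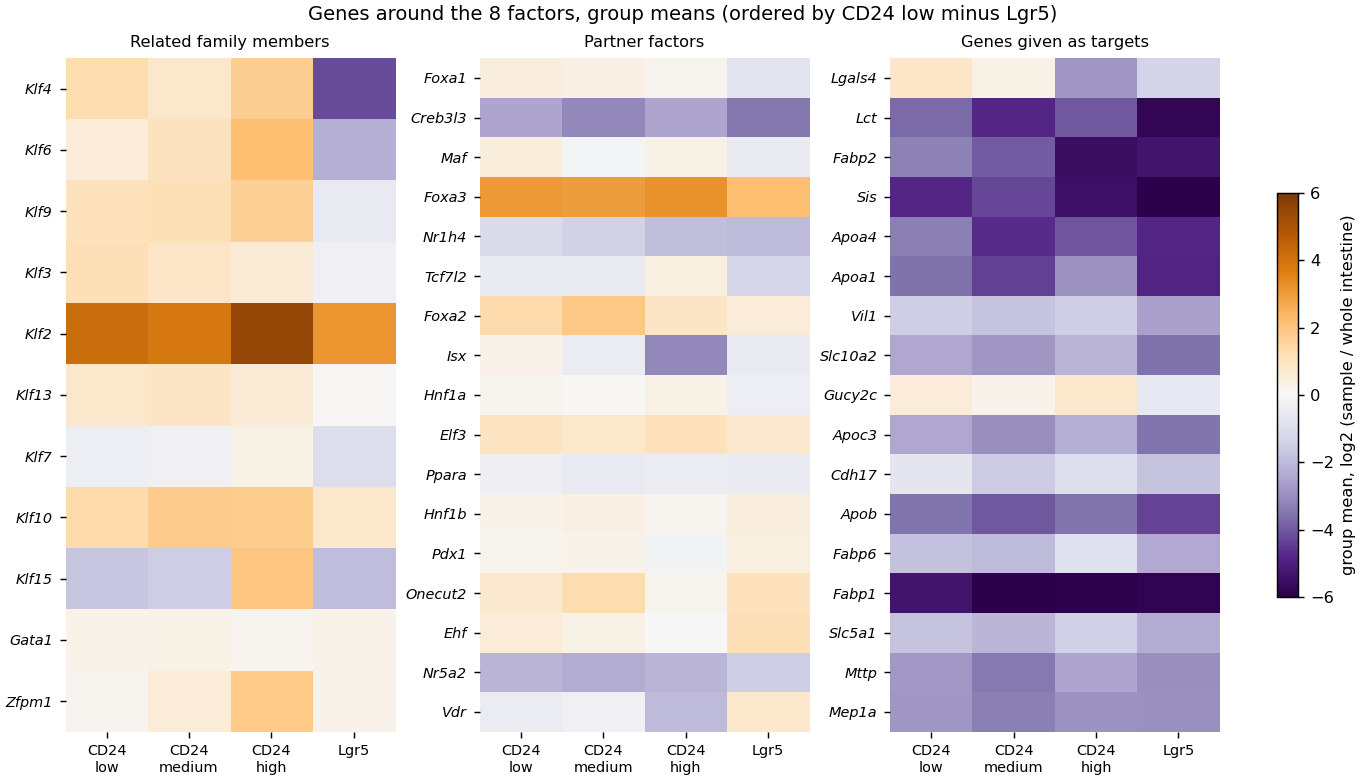
Group means (colour, log2 of sample over whole intestine) of the measured relatives, partner factors and genes given as targets, with rows in the order of CD24low minus Lgr5. Klf4 and Klf6 are purple in Lgr5 cells alone, and Isx, Vdr and Lgals4 are lowest in CD24high cells.

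Genes of other gut regions were mostly not measured past the filter, with 4 of 8 kept. Car1, a carbonic anhydrase abundant in colon, was below whole small intestine in all groups, at −2.56 and −2.54 in CD24high cells against −4.46 on the Lgr5 array (1.91, SE 0.26, adjusted p = 0.0025), and 1.17 higher with the sample channel alone (adjusted p = 0.013). Tff2, a trefoil peptide of stomach and duodenal glands, was also below whole small intestine in all groups. Its level was −2.22 and −2.17 in CD24low, −2.47 and −2.40 in CD24medium, −2.44 and −1.96 in CD24high cells and −3.27 on the Lgr5 array. CD24low minus Lgr5 was 1.07 (SE 0.24, adjusted p = 0.025). That call was lost without CD24low replicate 2 and with slide as a term (0.80, adjusted p = 0.14). It was also lost with the deposited ratios (0.93, adjusted p = 0.052) and with the sample channel alone (0.52, adjusted p = 0.11).

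Cdx1 was the 1 factor whose group means spanned at least 1 on the log2 scale, and genes with the most similar pattern over the 7 arrays were looked up for it among 5633 candidates. These were Ckmt1, a mitochondrial creatine kinase (Pearson r = 0.99), Cracdl (r = 0.99) and Tcirg1, a subunit of the vacuolar proton pump (r = 0.98). All 3 had the same order of group means as Cdx1. Ckmt1, for example, was at −0.65 and −0.57 in CD24low cells, −0.91 and −1.03 in CD24medium cells, −1.32 and −1.57 in CD24high cells and −1.63 on the Lgr5 array. The arrays share the reference RNA, and with 7 points the correlations are a description.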

How the data were processed

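Mean spot and background intensity of both channels were deposited for 7 arrays, extracted with Agilent Feature Extraction 10.5.1.1 per the file headers. Per the labels' protocols, RNA was isolated with Trizol, then amplified and labelled with Agilent's linear amplification kit. The deposited log10 ratios of the series matrix equal the array files' ratio column with its sign turned (largest difference 5e-06), so they give sample over whole intestine. No dye swap was made.

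Intensities were corrected with normexp (offset 50) and log2 ratios normalised by loess (span 0.3) in limma 3.58.1 under R 4.3.3, with data.table (version 1.17.8). Sequences and figures used Python 3.11.15, pandas 2.3.3 and matplotlib 3.10.9. Outlier spots were dropped. Probes well above background in the sample channel on at least 2 of 7 arrays were kept (24495 of 41174), and the brightest per symbol gave 17537 genes, or 17481 in comparisons with Lgr5. Array numbers limit the precision. RefSeq accessions renamed 26918 probes, and 14256 kept the file's name.

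A linear model over all 7 arrays took 1 mean for each group (3 residual and 3.55 prior degrees of freedom). Replicates entered without a block, since same-numbered samples did not deviate together in every pair of groups. For their deviations r was 0.48 between CD24low and CD24medium, 0.30 between CD24medium and CD24high and −0.0053 between CD24low and CD24high. In CD24medium and CD24high cells replicate 1 was on slide 1 and replicate 2 on slide 2. There a pairing and the slide cannot be told apart, and these values do not exclude a pairing. The fit was tested on simulated data of 17319 genes, of which 100 were changed by 1 (log2) and 100 by 2. CD24low minus CD24high recovered 45 and 99 of these and called 13 unchanged genes. CD24high minus Lgr5 recovered 11 and 96. The real comparisons called larger shares, 18.0 and 35.8% of all genes, so the simulated recovery does not carry over to them.

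The factors, lists and tests were chosen with earlier results of these data known. The genes named are the 8 factors, up to 3 genes of each list with the largest called difference, and the 3 genes most like a factor whose group means span at least 1. The alternatives were no background subtraction, the series matrix, the sample channel alone, no filter, slide as a term, a mean over each gene's probes, the compared groups alone, the replicate block and each array left out.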

Additional observations from a re-analysis of the deposited data

How the results depend on the processing

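Of the calls on the 8 factors, Cdx1 in CD24low against both CD24high and Lgr5 cells and Hnf4a in CD24high against Lgr5 cells passed under each alternative that could be run. With 1 array left out, Cdx1 against CD24high cells and Hnf4a at their weakest were only just past the threshold. For comparisons with Lgr5 cells the single Lgr5 array could not be left out, and the replicate block held the Dll1 arrays alone. In CD24low minus CD24high the 4 calls became 2 without the filter and with the compared groups alone, and 1 with the mean of all probes. In CD24high minus Lgr5 the count was 2 without background subtraction and with the sample channel alone, and in CD24medium minus Lgr5 it was 0 with the series matrix. In CD24medium minus CD24high, where none passed, 2 did without background subtraction, with the series matrix and with the sample channel alone, and 1 with slide as a term, the compared groups alone and the replicate block. With the replicate block CD24low minus CD24high called 5 factors and 3587 genes, CD24medium minus CD24high 4012 genes and CD24low minus CD24medium 29, against 3164, 3654 and 20; the labels do not say that the numbers pair the samples.

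With 1 array left out, the count of factors called was 1 to 4 in CD24low minus CD24high, 0 to 2 in CD24medium minus CD24high and 0 to 1 in CD24medium minus Lgr5, and stayed at 1, 1 and 0 in the others. Genes called ranged over 1682 to 3363 in CD24low minus CD24high, 1259 to 3979 in CD24medium minus CD24high, 9 to 41 in CD24low minus CD24medium, 1371 to 3628 in CD24medium minus Lgr5, 2302 to 3870 in CD24low minus Lgr5 and 4890 to 6356 in CD24high minus Lgr5. Without background subtraction 5034 genes were called in CD24low minus CD24high and 34 in CD24low minus CD24medium, and with the series matrix 5692 in the first. CD24low minus Lgr5 gave 1402 genes with slide as a term and 2294 with the compared groups alone, against 3798, and CD24low minus CD24medium gave 9 with the compared groups alone. The causes were not tested.

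The series matrix moved the median of all genes to 0.24 in CD24low minus CD24high, 0.21 in CD24medium minus CD24high and −0.15 in CD24high minus Lgr5, against 0.02, 0.01 and 0.10. Of the genes called, 58.5, 57.7 and 44.4% were then higher, against 37.9, 36.1 and 59.2%. With the sample channel alone, 52.4, 54.5 and 41.1% were higher in these, 42.4% in CD24medium minus Lgr5 (against 54.7%) and 38.9% in CD24low minus Lgr5 (against 55.0%).

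Signs turned only for differences that had not passed. With the sample channel alone these were Hnf4g against Lgr5 in CD24high (−0.26), CD24medium (−0.26) and CD24low cells (−0.34), Klf5 in CD24medium minus Lgr5 (−0.013), Gata6 in CD24medium minus CD24high (0.057), and in CD24low minus CD24medium Gata4 (0.16), Cdx2 (−0.048) and Hnf4g (−0.074). With the series matrix they were Hnf4g against Lgr5 (−0.13, −0.17 and −0.074 in the same order) and in CD24low minus CD24high (0.054), Gata6 in CD24medium minus CD24high (0.047) and Cdx2 in CD24low minus CD24medium (−0.014). With slide as a term, Cdx2 in CD24high minus Lgr5 was 0.011, Gata5 in CD24medium minus Lgr5 0.063 and Hnf4a in CD24low minus Lgr5 0.081. Without background subtraction Klf5 in CD24high minus Lgr5 was 0.022 and Gata4 in CD24low minus CD24medium 0.095, and with the mean of all probes Gata6 in CD24medium minus CD24high was 0.16. With 1 array left out, the ranges that crossed 0 were Cdx2 (−0.55 to 0.18) and Klf5 (−0.21 to 0.17) in CD24high minus Lgr5, Hnf4g (−0.051 to 0.16) in CD24medium minus Lgr5, Hnf4a (−0.18 to 0.072) in CD24low minus Lgr5, Gata5 (−0.015 to 0.55) in CD24medium minus CD24high, Gata6 (−0.042 to 0.27) in CD24low minus CD24high, and Cdx2 (−0.010 to 0.088) and Gata4 (−0.37 to 0.19) in CD24low minus CD24medium.

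Comparisons with Lgr5 cells have no replicate on that side, and the fit takes its spread from the Dll1 arrays. Gata4 and the 5′-most Hnf4a and dimmer Klf5 probes were not well above background in CD24high cells.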
